A study of Sus scrofa with 13 samples.

Results

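The genes described here are 10 protein-coding genes of the pig mitochondrial genome: COX1, COX2, COX3, ATP6, CYTB, ND1, ND2, ND4, ND5 and ND6. They were taken as the genes with these symbols on chromosome MT of the authors' gene tables that were counted in both breeds. They are 10 of 25322 genes, and all of them passed the filter on low counts in every comparison. RNA was sequenced from the longissimus lumborum, a muscle of the loin, of 13 unrelated female pigs aged 6 months. The pigs belonged to 2 sire breeds, Hampshire and Pietrain, and within each breed to a group with high or with low loin weight. Hampshire high held 3 pigs (numbers 8, 9 and 10), Hampshire low 3 (1, 2 and 3), Pietrain high 4 (1, 2, 6 and 7) and Pietrain low 3 (3, 5 and 8). The paper's table of animals lists 3 Pietrain high pigs, whereas the labels give 4, and all 4 were used. Pig numbers identify animals and do not match pigs across groups. No pig carried a transgene or received a treatment. The study asked which transcripts of the muscle differ with loin weight within each breed.

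The mitochondrial genome is a small circle that is transcribed from both strands as long precursors. The precursors are then cut, mostly at tRNA genes, into the separate rRNAs, tRNAs and messengers. Its protein genes all encode subunits of the respiratory chain and of ATP synthase, the complexes that oxidise NADH, pass electrons to oxygen and make ATP. Most subunits of these complexes are encoded in the nucleus, so each complex is assembled from the products of both genomes. Oxidative (slow) muscle fibres are known to hold more mitochondria than fast glycolytic fibres.

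The genes of complex I, which oxidises NADH, were ND1 (chromosome MT, positions 3922 to 4878 of Sscrofa10.2), ND2 (5087 to 6130), ND4 (11359 to 12736), ND5 (12935 to 14755) and ND6 (14739 to 15266). CYTB (15342 to 16481) encodes the cytochrome b of complex III. COX1 (6511 to 8055), COX2 (8203 to 8890) and COX3 (9800 to 10583) encode the core of complex IV, the cytochrome c oxidase, with COX1 as its catalytic subunit. ATP6 (9120 to 9800) encodes the subunit of ATP synthase that helps to form its proton path. All 10 are annotated as protein-coding genes. ND5 and ND6 overlap by 17 bases and are transcribed from opposite strands, and ATP6 and COX3 overlap by 1 base. ATP6 also overlaps ATP8 by 43 bases and ND4 overlaps ND4L by 7 bases. The library kit did not keep strand. Reads from ND6 and from the opposite strand could therefore not be told apart over any of the 528 bases of ND6. Values given for ND6 may hold reads of both strands.

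Total counts per library ranged from 11312755 to 20134612, with a median of 14055410. The muscle markers were present in all libraries: summed over 6 of them, they reached between 91154 and 216851 CPM (counts scaled to the library total). Breed and count table cannot be told apart, since each breed was deposited in its own table. The libraries of Pietrain high pig 2 and Pietrain low pig 8 stood apart in how their counts were spread over the 10 genes, as described below, so the fits that use Pietrain pigs were also made without them, for the 10 genes, the 64 nuclear subunits named below and the counts over all genes. The other gene lists were not refitted without them.

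The 10 genes took between 11.5% and 19.5% of all counts, with a median of 15.9% over the 13 pigs. In Hampshire high pigs 8, 9 and 10 the share was 13.1%, 12.1% and 16.8%. In Hampshire low pigs 1, 2 and 3 it was 19.5%, 18.3% and 18.9%. The Hampshire groups did not overlap, and the pigs with heavier loins had the lower share. In Pietrain high pigs 1, 2, 6 and 7 the share was 11.5%, 16.1%, 13.9% and 13.9%. In Pietrain low pigs 3, 5 and 8 it was 15.9%, 17.0% and 15.3%. The Pietrain groups overlapped through high pig 2, and the medians were 13.9% (high) and 15.9% (low). Because each share rests on a large number of counts, the 95% Wilson interval was narrow, from 11.48% to 11.51% for the lowest share and from 19.49% to 19.53% for the highest. These intervals cover counting error only. A lower share in bulk muscle can reflect less RNA per cell, fewer cells or more RNA from other genes, and these cannot be told apart here.

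The rest of chromosome MT took little of the libraries. The other 3 subunit genes, ND3, ND4L and ATP8, held between 0.363% and 0.784% of counts together. The 2 rRNA genes, positions 1246 to 2205 and 2274 to 3844, held between 0.0919% and 0.479%, and the kit selects RNA with a poly(A) tail.

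**Figure D1:**
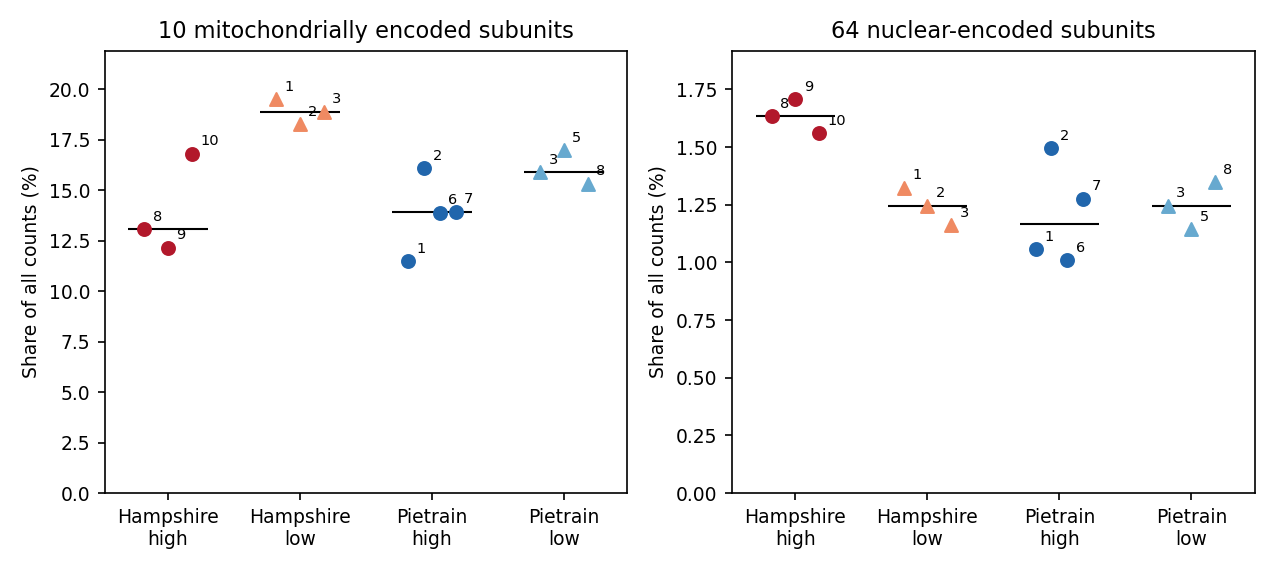
Share of all counts in each library, in percent, held by the 10 mitochondrially encoded subunit genes (left) and by 64 nuclear-encoded subunit genes of complexes I, III, IV and V (right), for the 4 groups. Each point is 1 pig with its number, the line is the group median, and both axes start at 0. The mitochondrial share lies between 12.1% and 16.8% in Hampshire high pigs and between 18.3% and 19.5% in Hampshire low pigs, while the nuclear share runs the other way, from 1.56% to 1.71% against 1.16% to 1.32%.

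Levels of the genes were compared per length, as CPM scaled by the trimmed mean of M-values (TMM CPM) per kilobase of gene. The complex IV and ATP synthase genes stood highest. COX3 had a mean of 34213 ± 9269 TMM CPM per kb (SD, n = 13), ATP6 31626 ± 6200, COX1 27258 ± 4855 and COX2 26504 ± 4108. These 4 genes were close to one another, since COX3 exceeded ATP6 in 8 of 13 pigs and COX1 exceeded COX2 in 8 of 13, while ATP6 exceeded COX1 in 11 of 13. CYTB followed with 10267 ± 2127 TMM CPM per kb, below COX2 in all 13 pigs and with no overlap of the ranges. ND1 came next with 8785 ± 2097 TMM CPM per kb and lay below CYTB in all 13 pigs.

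The remaining complex I genes formed the lower end of the order. ND2 had a mean of 7898 ± 2236 TMM CPM per kb, ND4 7650 ± 2117 and ND6 5851 ± 2135. ND2 exceeded ND4 in 11 of 13 pigs and ND4 exceeded ND6 in 8 of 13, so ND4 and ND6 were not ordered in the same way in all animals. ND5 was lowest, with 2973 ± 1091 TMM CPM per kb, and lay below ND6 in all 13 pigs. The mean of COX3 was 11.5 times that of ND5. The order is one of counted reads per gene length and was not corrected for overlaps, strand or sequence.

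**Figure D2:**
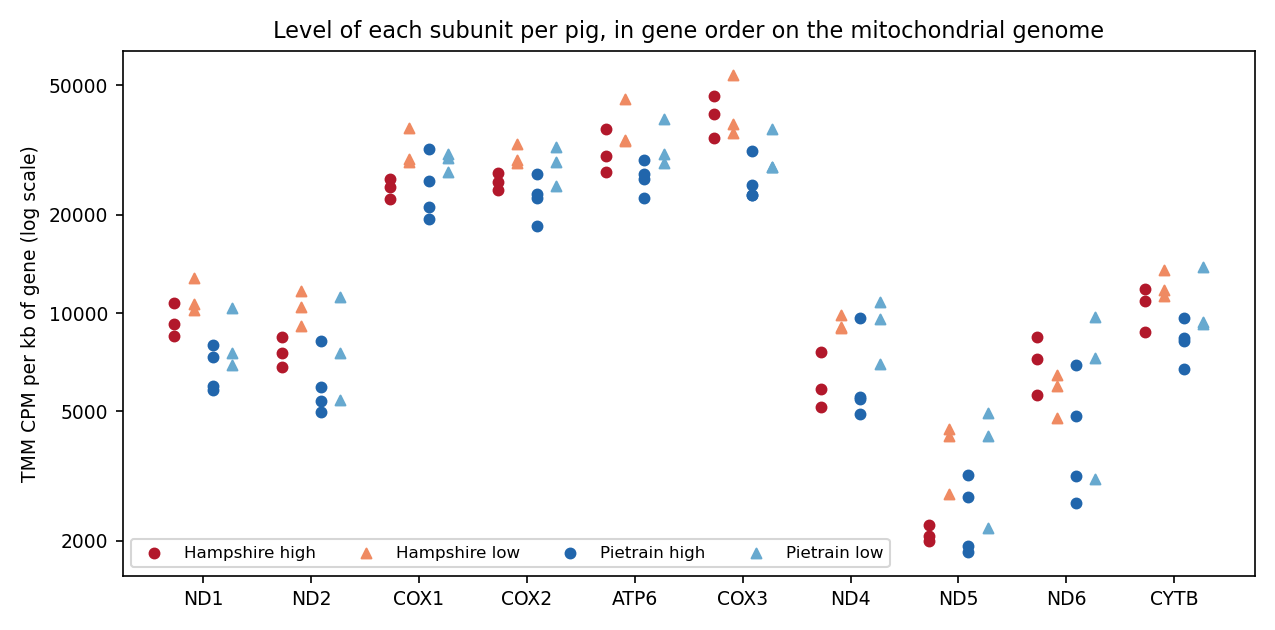
Level of each of the 10 genes in TMM CPM per kb of gene, on a log axis, with genes in their order along chromosome MT and 1 point per pig for each of the 4 groups. COX1, COX2, ATP6 and COX3 lie above the other genes, and ND5 is lowest, with a mean of 2973 TMM CPM per kb over 13 pigs.

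The levels of the 10 genes mostly moved together over the 13 pigs, although not all of them did. Among the 45 pairs of genes, Pearson's correlation of log2 TMM CPM had a median of 0.63 and ranged from -0.12 to 0.93. These values describe 13 libraries of 4 groups that share 1 scaling, and no test was made. ND1 with CYTB (0.93) and ND1 with COX3 (0.92) were the closest pairs. ND6 with ND4 (-0.12) and ND6 with COX1 (-0.11) were the most distant. ND6 is the only one of the 10 genes transcribed from the other strand, and the part of strand in these values was not tested. The median correlation of a gene with the other 9 was highest for CYTB (0.86) and lowest for ND5 (0.40).

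The split of the counts among the 10 genes differed between pigs. For each count of ND4 there were 0.253 counts of ND5 in Pietrain high pig 2 and 0.267 in Pietrain low pig 8. The ratio was 0.373 in Hampshire low pig 1 and 0.389 in Hampshire high pig 10. In the other 9 pigs it lay at or above 0.451, with the highest value, 0.792, in Pietrain low pig 3. Pietrain high 2 and low 8 thus lay below the 11 other pigs, and they belonged to different loin weight groups. In these 2 pigs ND4 made up 9.15% and 9.70% of the counts on the 10 genes, against 7.16% or less in every other pig. Their share of ND2 was 3.56% and 3.66%, whereas the lowest value elsewhere was 5.01% in Pietrain high pig 6. Their share of COX1 was 33.8% and 30.9%, against 28.4% or less elsewhere, and their share of COX3, 12.4% and 14.3%, was the lowest of the 13 pigs.

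ND6 varied in the same animals. It made up 0.949% of the counts on the 10 genes in Pietrain high pig 2, 1.06% in Pietrain low pig 8 and 1.18% in Hampshire low pig 1. In the remaining pigs it ranged from 1.56% to 2.95%. Against CYTB, the ratio of ND6 counts was 0.145, 0.155 and 0.163 in those 3 pigs and at least 0.217 elsewhere. The share of the 2 rRNA genes was highest in the same 3 pigs, with 0.351% in Pietrain high 2, 0.468% in Pietrain low 8 and 0.479% in Hampshire low 1, but Hampshire high pig 9 (0.348%) lay almost as high. The part of rRNA, or of RNA quality, in these ratios was not tested. Within Hampshire, the part of the counts on the 10 genes did not overlap between groups for 5 of them, with ND1 and ND6 larger and ND2, COX1 and ND4 smaller in high pigs. Each had an exact two-sided permutation p of 0.1, the smallest that 3 against 3 pigs allow. The 10 parts of a pig add up to its whole count on these genes, so a smaller part of 1 gene makes others larger. No share over all genes was made for such parts, and by level 45.9% of all genes tested did not overlap between the Hampshire groups. ND6 made up 1.98% to 2.74% in high and 1.18% to 1.95% in low pigs, and ND4 5.11% to 6.13% against 6.34% to 7.16%. In Pietrain all 10 parts overlapped between groups. Total counts of the 3 libraries were 12945444, 14941401 and 17928148, within the range of the others.

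**Figure D3:**
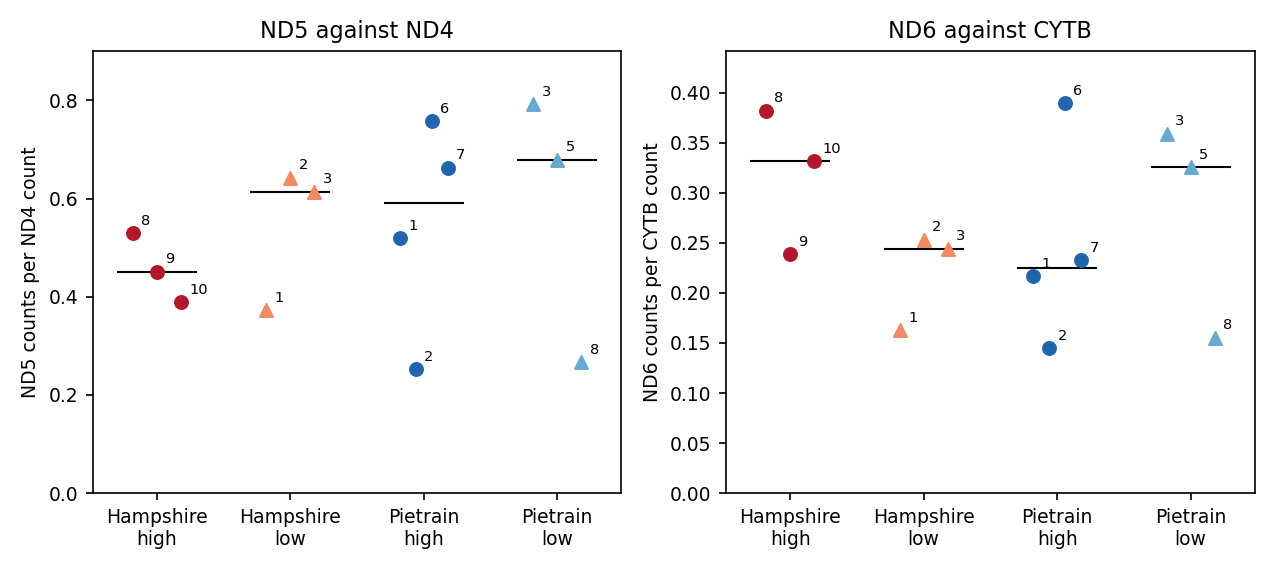
Counts of ND5 per count of ND4 (left) and of ND6 per count of CYTB (right) in each pig, with the pig number beside each point, the group median as a line and axes from 0. Pietrain high pig 2 and Pietrain low pig 8 are lowest in both panels, with 0.253 and 0.267 on the left and 0.145 and 0.155 on the right.

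Within Hampshire, 1 of the 10 genes was called lower in the high group and none was called higher. A call required an adjusted p under 0.05 in edgeR's quasi-likelihood test (Benjamini-Hochberg, over all genes tested) and a fold change of at least 1.2. Over all 12228 genes tested in this breed, 26.6% were called, 12% higher and 14.6% lower, so 1 call among 10 genes was not more than the share of all genes. The 3256 calls over all genes fell to 2091 without Hampshire high 9, 1760 without Hampshire high 10 and 1224 without Hampshire low 3, and without each of these pigs 0 of the 10 genes were called. At an unadjusted p under 0.05 it was 2 of the 10 genes, ND4 and ND5, against 41.2% of all genes. The gene was ND5, a large subunit in the membrane arm of complex I. It stood at 3754, 3624 and 4085 TMM CPM in Hampshire high pigs 8, 9 and 10. In Hampshire low pigs 1, 2 and 3 it stood at 5063, 8042 and 7617 TMM CPM. The groups did not overlap. The log2 fold change was -0.85 (SE 0.22), with edgeR adjusted p = 0.0249. This call rested on single animals: leaving out any 1 pig except Hampshire low 1 gave an edgeR adjusted p between 0.0522 and 0.0929, and without Hampshire low 1 it was 0.0133. One fit over all 13 pigs gave 0.0538.

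The other complex I genes of Hampshire gave values on both sides of zero. ND4 stood at 7081, 8032 and 10498 TMM CPM in high pigs 8, 9 and 10 and at 13590, 12511 and 12397 in low pigs 1, 2 and 3. The groups did not overlap, and the log2 fold change was -0.59 (SE 0.23, edgeR adjusted p = 0.0839). ND2 stood at 7116, 7885 and 8795 TMM CPM in the high pigs and at 12179, 10882 and 9516 in the low pigs. These groups did not overlap either, and the log2 fold change was -0.46 (SE 0.21, edgeR adjusted p = 0.137). ND1 overlapped between groups, with a log2 fold change of -0.24 (SE 0.21). ND6 was the only one of the 10 genes with a positive value. It stood at 3803, 2959 and 4472 TMM CPM in the high pigs and at 2517, 3402 and 3148 in the low pigs, which overlapped, and its log2 fold change was 0.31 (SE 0.22, edgeR adjusted p = 0.323).

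Complexes III, IV and V gave values in the same range in Hampshire, none of which passed the test. COX1 stood at 34608, 37708 and 39894 TMM CPM in high pigs 8, 9 and 10 and at 57184, 45024 and 46008 in low pigs 1, 2 and 3, with no overlap. Its log2 fold change was -0.41 (SE 0.23, edgeR adjusted p = 0.216). COX2 also did not overlap, with 16392 to 18490 TMM CPM against 19865 to 22765, and a log2 fold change of -0.27 (SE 0.21). COX3 stood at 27088 to 36458 TMM CPM in the high pigs and at 28057 to 42274 in the low pigs, with a log2 fold change of -0.07 (SE 0.26) that changed sign when Hampshire low pig 1 or Hampshire high pig 8 was left out. ATP6 and CYTB had log2 fold changes of -0.27 (SE 0.24) and -0.22 (SE 0.22), and both overlapped between groups. In all, 5 of the 10 genes did not overlap between the Hampshire groups, each of them lower with high loin weight. Among all genes tested 45.9% did not overlap, and 23.6% did not overlap and were lower. Taken singly, an exact two-sided permutation test on log2 TMM CPM gave p = 0.1 for these 5 genes, which is the smallest value that 3 against 3 pigs allow.

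Within Pietrain, 0 of the 10 genes were called by edgeR, as among all 12065 genes tested (0% called, with 398 genes, or 3.3%, at an unadjusted p under 0.05). None of the 10 genes had an unadjusted p under 0.05 with edgeR. DESeq2 called 1 gene of the whole table, which was not among the 10, and gave 1 of the 10 an unadjusted p under 0.05. The paper, with DESeq2 and the same thresholds, reports differing genes in both breeds and more in Pietrain than in Hampshire. The counts over all genes here run the other way, and the cause was not tested. All 10 log2 fold changes were below zero, from -0.60 (ND5, SE 0.29) to -0.23 (COX1, SE 0.20), and every adjusted p was 0.939. Their median was -0.33, against 0.02 over all genes tested. In Hampshire the median was -0.27, against 0.03 over all genes. Apart from ND6, the 10 genes come from precursors of the same strand, and all 10 share the scaling of each fit. Their signs are therefore not independent of one another.

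The values of ND5 show the spread in Pietrain. It stood at 3504, 3369, 5778 and 4966 TMM CPM in high pigs 1, 2, 6 and 7. In low pigs 3, 5 and 8 it stood at 7626, 8966 and 3987. The low group held both the highest pigs and a low one, pig 8. ND6 ranged still more widely, from 1382 to 3651 TMM CPM in the high pigs and from 1635 to 5129 in the low pigs, with a log2 fold change of -0.57 (SE 0.40). ND4 stood at 6742, 13322, 7625 and 7487 TMM CPM in high pigs 1, 2, 6 and 7 and at 9624, 13196 and 14937 in low pigs 3, 5 and 8, so only high pig 2 reached the low group. Its log2 fold change was -0.48 (SE 0.26).

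COX1 and ATP6 likewise overlapped between the Pietrain groups. ATP6 stood at 15360, 20101, 17576 and 18213 TMM CPM in high pigs 1, 2, 6 and 7 and at 19672, 26881 and 20960 in low pigs 3, 5 and 8, and the exact two-sided permutation test gave p = 0.0857, the smallest among the 10 genes. With 4 against 3 pigs the smallest value possible is 0.0286. None of the 10 genes was free of overlap, against 4.59% of all genes tested, 2.51% with the high group lower. Over both breeds 20 such single tests were made, and their p-values were not adjusted. Without Pietrain high 2 and low 8 no gene of the table was called, the 10 log2 fold changes stayed below zero and their median was -0.43.

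**Figure D4:**
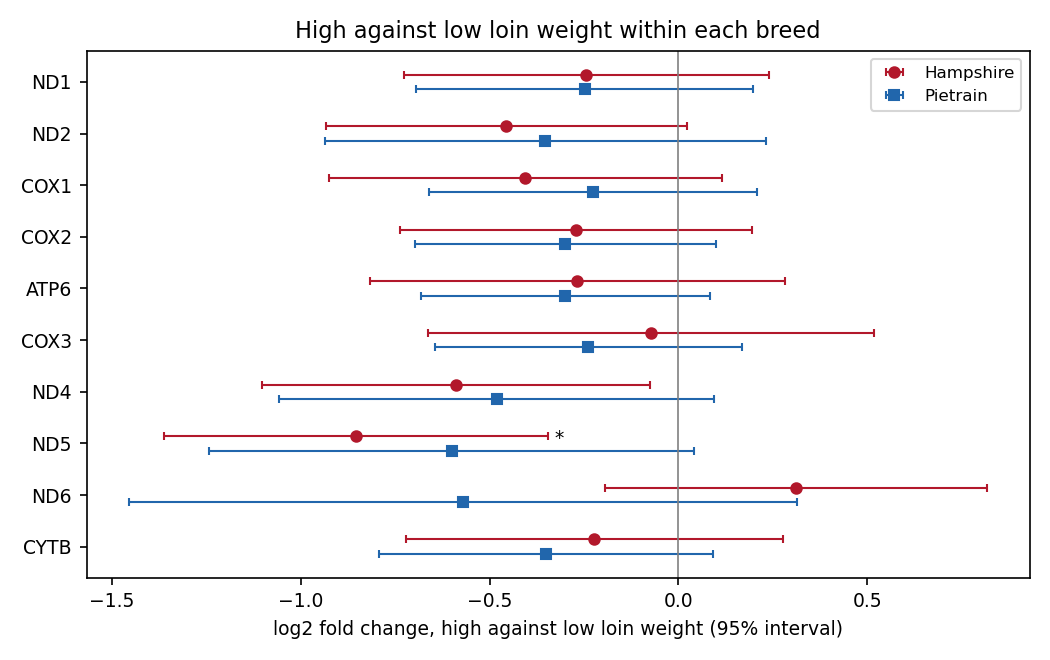
Log2 fold change of each of the 10 genes between high and low loin weight, with its 95% interval from edgeR's quasi-likelihood fit, for Hampshire (circles, 3 against 3 pigs) and Pietrain (squares, 4 against 3 pigs). Negative values are lower with high loin weight, and the asterisk marks the gene called in Hampshire, ND5 at -0.85. All intervals but those of ND4 and ND5 in Hampshire include zero, and ND6 is the only gene whose values lie on opposite sides of zero, 0.31 and -0.57.

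The difference between the breeds in the high against low effect was tested in one fit over 13 pigs. By edgeR 0 of the 10 genes were called, against 5.9% of 12831 genes tested (1.68% higher and 4.22% lower in Hampshire). None had an unadjusted p under 0.05 with either edgeR or DESeq2, against 22.1% of all genes with edgeR. The gene with the smallest p was ND6, with a difference of 0.92 on the log2 scale (SE 0.53, edgeR adjusted p = 0.331, 95% interval -0.21 to 2.05). For the other 9 genes the difference lay between -0.21 (ND5, SE 0.40) and 0.21 (COX3, SE 0.29). Their 95% intervals reached from -1.07 at the lowest (ND5) to 0.82 at the highest (COX3), so these pigs left room for differences in either direction.

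Between the breeds, the low groups gave 0 calls among the 10 genes with edgeR and with DESeq2, against 17.9% of 12831 genes with edgeR (7.84% higher and 10.1% lower in Hampshire). None of the 10 was free of overlap, against 42.8% of all genes, 21.4% with Hampshire lower. At an unadjusted p under 0.05 it was 2 of the 10 genes, against 35.9% of all genes. ND1 (log2 fold change 0.44, SE 0.20) and COX3 (0.46, SE 0.21) were higher in Hampshire at an unadjusted p of 0.0458 and 0.0449 by edgeR, with adjusted p of 0.132 and 0.130. The count over all genes rested on single animals here, from 2300 in all pigs to 109 without Hampshire low 2, 501 without Hampshire low 3, 163 without Pietrain low 5 and 111 without Pietrain low 8.

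Between the high groups, COX3 and ND1 were called higher in Hampshire than in Pietrain. These were 2 of 10 genes, against 46.8% of 12831 genes called in either direction, 22.6% higher and 24.2% lower. An unadjusted p under 0.05 was found for the same 2 genes, against 54% of all genes. COX3 stood at 27088, 32011 and 36458 TMM CPM in Hampshire high pigs 8, 9 and 10. In Pietrain high pigs 1, 2, 6 and 7 it stood at 18012, 18073, 19416 and 24606 TMM CPM. The groups did not overlap, and the log2 fold change was 0.67 (SE 0.19, edgeR adjusted p = 0.0120). Without Hampshire high pig 10 this adjusted p was 0.0775. ND1 stood at 8151, 8887 and 10250 TMM CPM in the Hampshire pigs and at 5539, 7036, 5728 and 7662 in the Pietrain pigs, again with no overlap. Its log2 fold change was 0.49 (SE 0.19, edgeR adjusted p = 0.0446), and this call was kept in 5 of 21 alternative fits, against 20 of 21 for COX3. COX1, by contrast, had a log2 fold change of -0.015 (SE 0.18). Those were the only 2 of the 10 genes without overlap between the groups, against 48.7% of all genes tested, 24.6% with Hampshire lower. These comparisons use the same pigs as those within breeds and are not independent of them.

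The other genes of chromosome MT were compared in the same fits. ND4L, a small complex I subunit that lies next to ND4, was lower in Hampshire high pigs, at 386, 533 and 483 TMM CPM in pigs 8, 9 and 10 and at 1144, 1372 and 1425 in low pigs 1, 2 and 3. The log2 fold change was -1.49 (SE 0.20, edgeR adjusted p = 0.00255). ATP8, a small subunit of ATP synthase whose gene overlaps ATP6, was lower as well, with 1796 to 2108 TMM CPM against 3317 to 4054 and a log2 fold change of -0.92 (SE 0.19, edgeR adjusted p = 0.0108). For ND4L and ATP8 the groups did not overlap, against 45.9% of all genes tested. Of the 7 other genes of chromosome MT, 2 were called lower and 0 higher in Hampshire. Among all genes 14.6% were called lower and 26.6% in either direction. Values without single pigs were not made for these 7 genes. ND3, a further complex I subunit, had a log2 fold change of 0.13 (SE 0.21). ND4L (297 bases), ATP8 (204 bases) and ND3 (346 bases) are shorter than all 10 genes described here. Reads that span the overlap of ND4L with ND4 or of ATP8 with ATP6 may be assigned to either neighbour. The part of gene length or overlap in these values was not tested.

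The 2 rRNA genes and the 2 tRNA genes of chromosome MT gave no call within a breed. In Hampshire the rRNA genes had log2 fold changes of -0.40 (SE 0.47) and -0.56 (SE 0.58), and in Pietrain of -0.50 (SE 0.38) and -0.65 (SE 0.29). In Pietrain ATP8 and ND4L had log2 fold changes of -0.46 (SE 0.19) and -0.63 (SE 0.30), with edgeR adjusted p of 0.939 for both. Between breeds at high loin weight, ATP8 and ND4L were lower in Hampshire (-0.53, SE 0.18, and -1.09, SE 0.27), ND3 was higher (0.59, SE 0.20), and 1 of the tRNA genes was called higher at a level of 3.40 to 11.1 TMM CPM. Of the 7 genes tested, 2 were thus called higher and 2 lower, against 46.8% of all genes called in either direction.

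The nuclear-encoded subunits of the same complexes were mostly higher with high loin weight in Hampshire, with 62 of 64 log2 fold changes above zero. Of 64 measured genes of complexes I, III, IV and V, 31 were called higher with high loin weight and 0 lower, and their median log2 fold change was 0.63. Among all genes tested, 12% were called higher and the median was 0.03. The count rested on single pigs, from 7 without Hampshire low 3 to 40 without Hampshire low 1. It was 14 without Hampshire high 9 and 15 without Hampshire low 2. In complex I, 15 of 34 genes were called higher, such as NDUFS7, a subunit with an iron-sulphur cluster (log2 fold change 1.19, SE 0.21), and NDUFV3 (0.87, SE 0.16). In complex IV, 9 of 12 were called higher, such as COX8A (1.07, SE 0.19) and COX4I1 (1.06, SE 0.19). In complex V it was 5 of 12, such as ATP5I (1.28, SE 0.18) and ATP5G1 (0.90, SE 0.21), and in complex III 2 of 6, UQCR10 (0.93, SE 0.22) and UQCR11 (0.98, SE 0.23).

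In Pietrain none of these 64 nuclear genes was called, 44 had a value below zero and their median log2 fold change was -0.10. The genes with the smallest p were NDUFC1 (-0.69, SE 0.26) and NDUFB3 (-0.37, SE 0.19) in complex I, UQCRC2 (-0.35, SE 0.24) and UQCRQ (-0.21, SE 0.22) in complex III, NDUFA4 (-0.31, SE 0.18) and COX7B (-0.32, SE 0.20) in complex IV and USMG5 (-0.35, SE 0.19) and ATP5D (0.27, SE 0.31) in complex V. For the difference between the breeds 9 of the 64 were called with the higher value in Hampshire, against 1.68% of all genes. This count rested on single pigs. It was 1 without Hampshire high 9, Hampshire low 2 or Hampshire low 3, between 2 and 5 without Hampshire high 8 or Pietrain high 1, high 2, low 5 or low 8, and 14 without Pietrain high 7. It was 1 without Pietrain high 2 and low 8 together, and 21 with DESeq2. Complex II, which has no mitochondrially encoded subunit, had 1 of 4 genes called higher in Hampshire, SDHB (0.55, SE 0.17), while SDHC had 0.29 (SE 0.18). In Pietrain SDHA (0.28, SE 0.31) and SDHD (-0.16, SE 0.19) had the smallest p, and neither was called.

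The ratio of the counts on both sets differed accordingly. For each count on the 64 nuclear genes there were 7.99, 7.11 and 10.8 counts on the 10 mitochondrial genes in Hampshire high pigs 8, 9 and 10. In Hampshire low pigs 1, 2 and 3 there were 14.7, 14.7 and 16.3. Those groups did not overlap. In Pietrain the ratio was 10.9, 10.8, 13.8 and 10.9 in high pigs 1, 2, 6 and 7 and 12.7, 14.8 and 11.4 in low pigs 3, 5 and 8, which overlapped. Gene length, taken as the span from gene start to gene end, moved with the nuclear result. Spans were known for 9975 of 25322 genes, and they include introns, so they are not transcript lengths. Nuclear genes that span under 2 kb had a median log2 fold change of 0.45 in Hampshire (522 genes). Those of 2 to 10 kb had 0.37 (2568 genes), and those of 50 kb and over -0.34 (2255 genes). In Pietrain the medians of these classes were 0.03, 0.05 and -0.04. The part of gene length in the nuclear result was not tested. All 10 mitochondrial genes span under 2 kb.

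**Figure D5:**
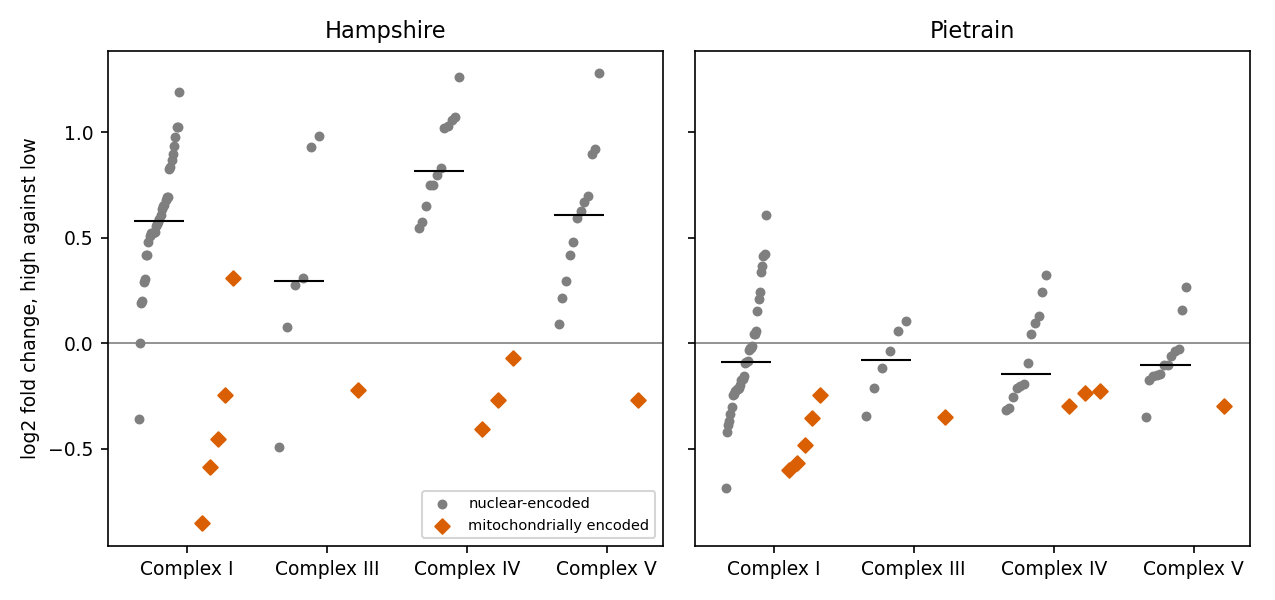
Log2 fold change between high and low loin weight of the nuclear-encoded subunits (grey points, with their median as a line) and of the 10 mitochondrially encoded genes (diamonds), by complex, for Hampshire (left) and Pietrain (right). In Hampshire the nuclear medians lie above zero in all 4 complexes and 9 of 10 diamonds lie below zero, while in Pietrain the nuclear medians lie between -0.14 and -0.08 and all 10 diamonds lie below zero.

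Nuclear genes that act on mitochondrial DNA and RNA were compared by lists. Of 11 tested genes for transcription and copying of mitochondrial DNA, none was called in Hampshire, and the median log2 fold change was -0.03. POLG, the mitochondrial DNA polymerase (-0.33, SE 0.16), and TWNK, the helicase (-0.36, SE 0.21), had the smallest p. In Pietrain none of 12 was called, with TFB2M, a transcription factor (-0.67, SE 0.22), and SSBP1, which binds single-stranded DNA (-0.33, SE 0.19), having the smallest p. Of 19 genes that process, stabilise or degrade mitochondrial RNA, 4 were called higher and 1 lower in Hampshire, a share close to the 26.6% of all genes called in that comparison. SLIRP, which stabilises mitochondrial messengers together with LRPPRC, rose by 0.89 (SE 0.21), and HSD17B10, part of the RNase P that cuts the precursor, rose by 0.78 (SE 0.20) on the log2 scale. In Pietrain none of the 19 was called, and ELAC2, which cuts the 3′ ends of tRNAs (0.73, SE 0.34), and MTPAP, the mitochondrial poly(A) polymerase (-0.39, SE 0.20), had the smallest p.

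Of 11 regulators of mitochondrial biogenesis, 5 were called lower and 0 higher in Hampshire, against 14.6% of all genes called lower. The median log2 fold change of the 11 was -0.89. Among nuclear genes that span 50 kb and over, 679 of 2255 were called lower in that comparison. The part of gene length in this list was not tested, and the list was not refitted without single pigs. PRKAA2, a catalytic subunit of the AMP-activated kinase, fell from a mean of 148 to 65.2 TMM CPM (log2 fold change -1.18, SE 0.16, edgeR adjusted p = 0.00276). PPARGC1A, a coactivator of mitochondrial genes, fell from 8.15 to 2.46 TMM CPM (-1.74, SE 0.38, edgeR adjusted p = 0.0131). In Pietrain it stood at a mean of 184 TMM CPM in low and 101 in high pigs (-0.84, SE 0.72), and none of the 11 regulators was called. PPRC1 (-0.38, SE 0.21) and PPARD (0.42, SE 0.28) had the smallest p there. Against Pietrain, PPARGC1A was lower in Hampshire at both loin weights (-4.50, SE 0.82, and -5.38, SE 0.86). Between the breeds 17.9% of all genes were called at low and 46.8% at high loin weight. Breed cannot be told apart from count table, and PPARGC1A was compared between breeds after its values were seen.

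Among 14 mitochondrial proteins outside the respiratory chain, 1 was called higher and 2 lower in Hampshire, not more than the 26.6% of all genes, with PHB2, a prohibitin (0.63, SE 0.17), and OPA1, which fuses inner membranes (-0.66, SE 0.17), having the smallest p. In Pietrain none was called, and HSPE1, a chaperonin (-0.34, SE 0.17), and OPA1 (-0.34, SE 0.20) had the smallest p. These lists hold genes with opposite directions, and no statement on mitochondrial content follows from them.

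Some markers of fibre type and of other cells were called in Hampshire, where 12% of all genes were called higher and 14.6% lower. Calls in the fast fibre, muscle, endothelial and red blood cell lists were not more than the 26.6% of all genes called. The calls over all genes fell from 3256 to 1224 without Hampshire low 3, and these lists were not refitted without single pigs. All 5 measured genes of slow fibres were called higher in high pigs, with TNNC1 (2.06, SE 0.27) and TNNI1 (2.22, SE 0.33) first, and their summed level was 10525 to 16760 CPM in high and 2581 to 6916 CPM in low pigs. Of 5 fast fibre genes 1 was called lower, MYH1 (-1.25, SE 0.37), and TNNC2 had 0.72 (SE 0.27), with summed levels of 61046 to 72964 against 85032 to 114997 CPM. Of 6 muscle markers 1 was called higher, CKM (0.98, SE 0.28), and TNNC2 had the next smallest p. Adipocyte markers summed to 160 to 237 CPM in high and 58.1 to 70.4 CPM in low pigs, with 2 of 3 genes called higher, CFD (1.80, SE 0.21) and CIDEC (2.20, SE 0.64). Fibroblast markers, with DCN (1.55, SE 0.30) and COL3A1 (1.44, SE 0.42), summed to 1758 to 3943 against 667 to 1655 CPM, and 3 of 5 were called higher. Macrophage markers, with AIF1 (1.04, SE 0.24) and CD14 (2.06, SE 0.48), summed to 30.8 to 54.8 against 16.9 to 30.3 CPM, and 2 of 5 were called higher. None of 4 endothelial and 2 red blood cell genes was called, among them CLDN5 (1.05, SE 0.36), PECAM1 (0.23, SE 0.19), HBB (0.29, SE 0.51) and ALAS2 (0.20, SE 0.83). No marker gene was at 0 in all pigs. The part of fibre type or of these other cells in the levels of the 10 mitochondrial genes was not tested.

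In Pietrain none of these markers was called. Slow fibre genes summed to 839 to 12329 CPM in high and 24.9 to 8903 CPM in low pigs, with MYH7 at 0.48 (SE 1.36) and MYL3 at 0.42 (SE 1.27). Fast fibre genes had PVALB (-0.57, SE 0.23) and MYL1 (-0.35, SE 0.22) with the smallest p, and muscle markers CKM (0.19, SE 0.20) and DES (0.25, SE 0.26). Among markers of other cells the smallest p were those of PLIN1 (2.02, SE 0.69) and CIDEC (0.75, SE 0.51) for adipocytes, CD68 (1.33, SE 0.52) and AIF1 (0.54, SE 0.46) for macrophages, COL3A1 (0.54, SE 0.35) and DCN (0.24, SE 0.29) for fibroblasts, CLDN5 (0.49, SE 0.69) and KDR (0.05, SE 0.43) for endothelium, and ALAS2 (-0.30, SE 0.81) and HBB (0.11, SE 0.60) for red blood cells.

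The 5 nuclear genes whose pattern over the 13 pigs was most like the mean log2 TMM CPM of the 10 genes were SMYD3 (Pearson's r 0.79), an unnamed gene on a scaffold (0.77), ASPM (0.77), an unnamed gene on chromosome 15 (0.76) and ZDHHC18 (0.76). All 5 were scarce, between 0.289 and 19.4 TMM CPM, and none was called within a breed. With 12831 genes to choose from, values of this height describe these 13 libraries only.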

How the data were processed

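RNA-seq of longissimus lumborum from 13 pigs was analysed. Per the labels and the study's methods, the authors made libraries with the TruSeq RNA kit v2, sequenced them as single-end reads and aligned them to Sscrofa10.2. The submitters' processing notes name FastQC, STAR, RSEM and DESeq2 without roles or versions. The deposited count tables, 1 per breed, hold whole-number read counts per gene, which may be rounded estimates. The authors' comparison tables (mean counts, fold changes, p-values) were used only for gene positions, symbols and types. Groups came from the labels.

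Counts were filtered with filterByExpr, TMM-scaled and tested with edgeR 4.0.16 (R 4.3.3) by quasi-likelihood over the whole table, within each breed and, for breed contrasts and their difference, over 13 pigs. A gene was called where its adjusted p was under 0.05 and its fold change reached 1.2. Exact permutation tests used log2(TMM CPM + 0.5). TMM CPM values use 1 scale over 13 pigs, and summed marker levels are CPM of library totals. In simulated counts with 3-fold changes (1.58 on the log2 scale), edgeR called 142 of 199 changed genes for Hampshire and 140 of 198 for Pietrain. It called 57 of 200 for the difference between the breeds and 141 of 200 between breeds at low loin weight. Unchanged genes called numbered 11, 15, 1 and 5 in the same order. The changes of the genes described here were smaller, so these counts do not show how often such changes would be called. All 15 pairs of libraries within groups differed beyond sampling noise. P-values set a difference between groups against the spread between these animals.

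The genes and lists were chosen with earlier results of these data known. All 10 genes, all other genes of chromosome MT, the 2 genes of each list with the smallest p in each breed and the 5 most similar nuclear genes were named; PPARGC1A and PRKAA2 were also compared between breeds or in Pietrain after their values were seen. DESeq2 1.42.0, other scalings and filters, 1 fit over all pigs and leaving out each pig were tried as alternatives. Leaving out Pietrain high 2 and low 8 together, and counting the nuclear subunits under each alternative, were added after the data were seen. Of 25322 genes, 13168 had a symbol, and list genes without one were not used.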

Additional observations from a re-analysis of the deposited data

Results flagged for a closer look

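In the Pietrain high group, ND4 stood at 13322 TMM CPM in pig 2, whereas the other 3 pigs lay between 6742 and 7625. The gap to the nearest pig was 0.866 of the range of the group, above Dixon's 95% critical value for 4 samples. This was 1 of 21 such sets of 4 values examined (levels and shares of the 10 genes and their summed share), and chance flags about 1 in 20.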

How the results depend on the processing

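Within Hampshire the number of the 10 genes called was 1, and it was 3 with DESeq2 (ND2, ND4, ND5), 4 with library totals in place of TMM, 0 in one fit over all pigs and 0 to 1 when each pig was left out. The genes called over the whole table numbered 1224 to 3049 without single pigs. In Pietrain DESeq2 called 1 gene of the table. For the difference between the breeds, 757 genes were called, 1224 with DESeq2, 379 to 1052 without single pigs and 267 without Pietrain high 2 and low 8. Between breeds at low loin weight it was 109 to 3091 without single pigs and 21 without those 2. At high loin weight, 2 of the 10 genes were called and 1 with library sizes that leave out chromosome MT, with library totals, with no filter or without Pietrain high 2 and low 8, and 0 to 2 without single pigs. Per 100 counts outside chromosome MT, the median on the 10 genes was 15.1 in Hampshire high, 23.6 in Hampshire low, 16.3 in Pietrain high and 19.1 in Pietrain low pigs.

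Library totals moved the median log2 fold change of all genes from 0.03 to -0.12 in Hampshire, from 0.02 to 0.11 in Pietrain, from -0.02 to -0.29 for the difference and from 0.02 to -0.22 between breeds at high loin weight. Relative to that median, the 10 genes had a median of -0.30 with TMM and -0.28 with library totals in Hampshire, and -0.35 and -0.34 in Pietrain. The share of calls that were higher fell from 45.1% to 28.8% in Hampshire, from 28.4% to 10.9% for the difference and from 48.3% to 33.1% between breeds at high loin weight.

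Some values changed sign. For the difference between the breeds, library totals gave ND1 -0.22, COX2 -0.21, ATP6 -0.19, COX3 -0.044 and CYTB -0.10, and leaving out Pietrain high 2 and low 8 gave ND2 0.015 and ND4 0.0038. Without single pigs the difference ranged from -0.19 to 0.14 for ND1, -0.42 to 0.12 for ND2, -0.078 to 0.10 for COX2, -0.12 to 0.17 for ATP6, -0.31 to 0.15 for ND4, -0.49 to 0.0033 for ND5 and -0.086 to 0.26 for CYTB. Between breeds at low loin weight ND5 was -0.0060 with DESeq2, -0.0060 with its size factors, -0.0065 with library sizes outside chromosome MT and -0.22 without Pietrain high 2 and low 8, and without single pigs it ranged from -0.22 to 0.24, ND4 from -0.079 to 0.21 and ND6 from -0.52 to 0.13. At high loin weight COX2 was -0.081 with library totals, and COX1 was 0.12 and ND4 0.22 without Pietrain high 2 and low 8. Without single pigs COX1 ranged from -0.13 to 0.13 and ND4 from -0.26 to 0.22. In Hampshire COX3 ranged from -0.19 to 0.10. The cause was not tested. In Pietrain none of 130 alternative values of the 10 genes changed sign or was called. No paired analysis was possible because pig numbers identify animals and not pairs across groups.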
